A study of Bos taurus with 15 samples.

Results

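Periostin (*POSTN*) and 9 other genes of matricellular proteins were followed in subcutaneous adipose tissue of Holstein cows around calving. Matricellular proteins are secreted into the extracellular matrix, where they bind collagens, fibronectin, growth factors and cell surface integrins and alter how cells attach and respond, rather than forming the structural scaffold of the tissue. In adipose tissue they are made mainly by fibroblasts, vascular cells and immune cells and are known for their part in matrix turnover, fibrosis and tissue expansion. The 10 genes, *POSTN*, *TGFBI*, *SPARC*, *SPARCL1*, *SPP1*, *THBS1*, *THBS2*, *THBS4*, *TNC* and *TNXB*, were chosen by name as a family, and each of them was found in all 6 comparison tables, 10 of the 13896 genes listed there. The family was built around *POSTN*, which had been picked from earlier results of these tables for its difference between -4 wkpp and MNEB 1 wkpp. The values of *POSTN* are therefore given below as a description, with no test.

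The cows were primiparous Holsteins, and fat was taken by biopsy at the dewlap, 4 weeks before calving (-4 wkpp) and 1 and 16 weeks after calving (1 wkpp, 16 wkpp). The labels name the groups after calving by diet, high energy (HE) or low energy (LE), and both diets began 1 month before calving, after the biopsy at -4 wkpp. The study names them by negative energy balance, moderate (MNEB) or severe (SNEB). Here HE libraries are called MNEB and LE libraries SNEB, since the sample numbers in the titles and in the study's list of libraries pair them in this way. The libraries at -4 wkpp are 1 group with no diet or energy balance assigned. The 15 libraries form 5 groups of 3. Per the study's methods, the cows sequenced were 3 with SNEB and 3 with MNEB, those with the most extreme energy balance at 1 wkpp, and each animal was biopsied at all times. Libraries at 1 and 16 wkpp of one diet, and those at -4 wkpp, may therefore share cows, but the labels do not link them. The groups were compared as unpaired, and p-values measure only the spread between the libraries of a group. Within a group the libraries are named a, b and c in falling order of size factor, the number each library's counts are divided by. Titles of the samples carry a code, m1 or m2, that the sources do not explain. It is the same in both groups only for -4 wkpp and MNEB 1 wkpp, and in the other 5 comparisons it cannot be told apart from the groups.

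Counted reads and spike-ins set the MNEB libraries apart. The 9 libraries of -4 wkpp and SNEB cows held 8.28 to 14.8 M reads on exons of genes and the 6 MNEB libraries 2.03 to 7.54 M reads. Synthetic spike-in RNAs took 1.28 to 8.90% of the counted reads in the former and 17.2 to 62.7% in the latter. In the study's list of libraries, total reads overlapped between MNEB and the others. In each MNEB library a smaller share of reads aligned uniquely, and more mapped to several places, than in any other library. Shallow below means few reads counted, not few sequenced. The part of this difference in the results was not tested. All levels below are counts of reads on exons divided by the size factor of the library (normalized counts), which are comparable between libraries but not between genes, since gene length was not taken into account. Reads counted over the whole gene, introns included, served as a second analysis. Genes with a mean normalized count of at least 10 over the 6 libraries of a comparison were tested, and a gene was called when limma gave adjusted p-values (Benjamini-Hochberg over all genes tested) under 0.01 on exons and on whole genes, in 1 direction. In bulk tissue, fewer cells of a type and less RNA per cell cannot be told apart.

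*POSTN*, which binds collagens and integrins and takes part in collagen cross-linking, had its highest levels before calving and in 1 SNEB library at 16 wkpp. At -4 wkpp the normalized counts of libraries a, b and c were 13250.1, 7175 and 10659. At MNEB 1 wkpp they were 188, 141 and 84.5, resting on 180, 52 and 23 reads. The groups were 38.2 times apart at their nearest libraries, and the group means were 10362 ± 3048 and 138 ± 51.6 (SD, n = 3 each). The fitted log2 difference, -4 wkpp minus MNEB 1 wkpp, was 6.08 (SE 0.36).

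In SNEB cows *POSTN* was uneven within groups. At SNEB 1 wkpp the normalized counts were 249, 3303 and 324, and at SNEB 16 wkpp 1465, 2327 and 23029.5. A single library stood above the others of its group, b at 1 wkpp with 13.3 times the lowest and c at 16 wkpp with 15.7 times the lowest, so that the group means of 1292 ± 1742 and 8940.5 ± 12209 (SD, n = 3) say little about a typical cow. All 3 libraries of SNEB 1 wkpp lay under the lowest library of -4 wkpp, by 2.17 times at the nearest, with a log2 difference of 3.96 (SE 0.89) that came to 5.15 without library b of SNEB 1 wkpp and to 3.29 without library a. At MNEB 16 wkpp the normalized counts were 1955, 182 and 2594, with library b as low as the libraries of MNEB 1 wkpp. The log2 difference of MNEB 1 minus MNEB 16 wkpp was -2.74 (SE 0.99) and that of SNEB 1 minus SNEB 16 wkpp -2.75 (SE 1.21), and in both comparisons the libraries of the groups overlapped. With 1 library left out they ranged from -3.96 (without MNEB 16 b) to -2.10 (without MNEB 16 c) and from -3.94 (without SNEB 1 b) to -1.52 (without SNEB 16 c). SNEB minus MNEB was 2.11 (SE 1.10) at 1 wkpp, where the libraries did not overlap, and 2.14 (SE 1.17) at 16 wkpp, where they did. With 1 library left out it ranged from 0.94 (without SNEB b) to 2.80 (without SNEB a) at 1 wkpp and from 0.91 (without SNEB c) to 2.90 (without SNEB a) at 16 wkpp, where it was 0.94 without MNEB b.

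**Figure D1:**
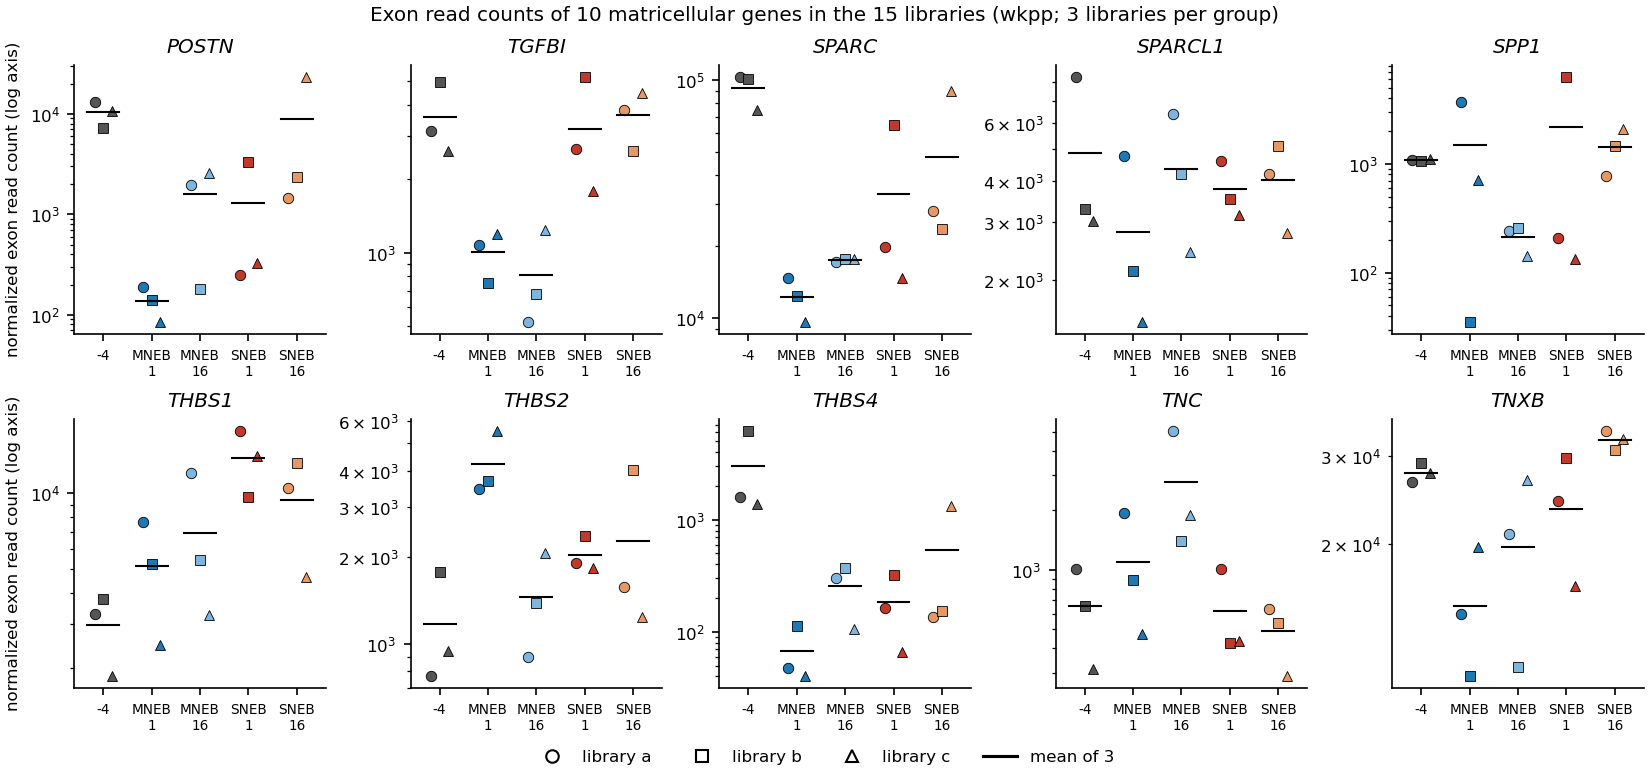
Normalized exon read count (log axis) of each of the 10 genes in the 15 libraries, by group on the horizontal axis, with 1 symbol per library and a bar at the mean of 3. *POSTN* is between 7175 and 13250.1 at -4 wkpp and between 84.5 and 188 at MNEB 1 wkpp, and *TGFBI* is higher in each SNEB library than in each MNEB library.

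*TGFBI*, a relative of periostin that is induced by TGF-beta and links collagens to integrins, separated the SNEB from the MNEB libraries after calving. The 6 MNEB libraries had 521 to 1235 normalized counts, with a median of 912, and the 6 SNEB libraries 1786 to 5184, with a median of 3239.7. No SNEB library was as low as any MNEB library. Of 10449 genes with enough reads, 7.32% were higher in all 6 SNEB libraries in this way and 11.3% higher in all 6 MNEB libraries, and *TGFBI* was the only one of the 10 genes that did so in either direction.

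At 16 wkpp the SNEB libraries held 3827, 2602 and 4481 normalized counts of *TGFBI*, the MNEB libraries 521, 681 and 1235. It was over-expressed in SNEB, with a log2 difference of 2.26 (SE 0.34) and limma adjusted p-values of 0.00236 on exons and 0.00823 on whole genes. The call was kept in 1 of 6 fits without a single library, with log2 differences from 1.95 to 2.60 and adjusted p-values on whole genes up to 0.0417. It was also lost with no filter on low counts and on log2 counts without weights. Without the 4 shallow MNEB libraries, b and c of both times, the log2 difference was 2.77 (SE 0.54) and not called. That last fit took all groups together and assumes that the 1 library left in each MNEB group varies like those of the other groups. At 1 wkpp the counts of the SNEB libraries were 2653, 5184 and 1786, against 1073, 751 and 1187 in MNEB. The log2 difference was 1.56 (SE 0.37), but limma adjusted p-values of 0.0254 and 0.0445 did not pass the threshold. At -4 wkpp the libraries held 3123, 4971 and 2599.9, all above those of MNEB 1 wkpp, with a log2 difference of 1.80 (SE 0.28) that passed on exons (limma adjusted p = 0.00141) and not on whole genes (0.0145). The levels at -4 wkpp overlapped with those of both SNEB groups.

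*SPARC* (osteonectin), a collagen-binding protein needed for the assembly of collagen fibres, was lower at MNEB 1 wkpp than before calving. The libraries at -4 wkpp held 102486, 101377 and 74802 normalized counts and those at MNEB 1 wkpp 14730.4, 12375 and 9583. The lowest library before calving was 5.08 times the highest at MNEB 1 wkpp. The log2 difference was 2.94 (SE 0.23), and the limma adjusted p-values of 7.43e-05 on exons and 0.0057 on whole genes both passed. The call was kept in 1 of 6 fits without a single library, in which the log2 difference was between 2.77 and 3.08 and the adjusted p-value on whole genes between 0.00748 and 0.0471. The call was also lost on log2 counts without weights. Without the 4 shallow MNEB libraries the log2 difference was 2.64 (SE 0.78) and not called.

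After calving *SPARC* stayed below all -4 wkpp libraries in all but 1 library, c of SNEB 16 wkpp. At SNEB 1 wkpp the normalized counts were 19924, 64437 and 14743. They were below those of -4 wkpp by a log2 difference of 1.79 (SE 0.50), which did not pass (limma adjusted p = 0.127) and came to 2.42 and passed without library b of SNEB 1 wkpp. At MNEB 16 wkpp the libraries were close together at 17074, 17635 and 17571, and higher than at MNEB 1 wkpp by 0.55 on the log2 scale (SE 0.24, limma adjusted p = 0.382). At SNEB 16 wkpp the normalized counts were 27974, 23581 and 90101, each above the MNEB 16 wkpp libraries, with a log2 difference of 1.16 (SE 0.42, limma adjusted p = 0.0714) that came to 0.56 without library c of SNEB 16 wkpp. *POSTN*, *SPARC*, *TGFBI*, *SPP1* and *THBS4* all had their highest library in the same place in both SNEB groups, b at 1 wkpp and c at 16 wkpp. *THBS2* and *TNXB* shared it at 1 wkpp only. *SPARCL1* (hevin), the near relative of *SPARC*, had 1485 to 8248 normalized counts over the 15 libraries, and its groups overlapped in all 6 comparisons.

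None of the 3 thrombospondins, large glycoproteins that bind calcium and cell surface receptors, was called in any comparison by limma on voom weights. With library quality weights added, *THBS2* was called between -4 wkpp and MNEB 1 wkpp, and *THBS1* and *THBS4* between -4 wkpp and SNEB 1 wkpp. *THBS1* and *THBS2* have anti-angiogenic roles, *THBS1* also activates latent TGF-beta, and *THBS4* is known from tendon and muscle matrix. *THBS1* was lowest on average before calving, with 3300.0, 3773 and 1859 normalized counts, and highest on average at SNEB 1 wkpp, with 17698, 9702 and 14162. These groups lay 2.57 times apart at the nearest libraries, and the log2 difference of -4 wkpp minus SNEB 1 wkpp was -2.25 (SE 0.32), with limma adjusted p-values of 0.0127 and 0.045 that did not pass. MNEB 1 wkpp had 7665, 5231 and 2463 normalized counts, overlapping with -4 wkpp and below SNEB 1 wkpp by 1.56 on the log2 scale (SE 0.41, limma adjusted p = 0.0342 on exons and 0.119 on whole genes), or by 0.81 without the 4 shallow MNEB libraries. At 16 wkpp the MNEB libraries held 12066, 5423 and 3263, the SNEB libraries 10449.9, 13229.6 and 4626, and the groups overlapped.

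*THBS2* was highest at MNEB 1 wkpp, in the group where *POSTN* and *THBS4* were lowest. The libraries there held 3462, 3694 and 5514 normalized counts, against 771, 1784 and 945 at -4 wkpp, 896, 1391 and 2074 at MNEB 16 wkpp and 1905, 2372 and 1838 at SNEB 1 wkpp. The MNEB 1 wkpp libraries lay above all libraries of these 3 groups. The log2 difference of -4 wkpp minus MNEB 1 wkpp was -1.92 (SE 0.32), past the threshold on exons (limma adjusted p = 0.00182) and not on whole genes (0.0206). MNEB 1 minus MNEB 16 wkpp gave 1.59 (SE 0.33, limma adjusted p = 0.231) and SNEB 1 minus MNEB 1 wkpp gave -1.03 (SE 0.24, limma adjusted p = 0.0226). SNEB 1 wkpp was above -4 wkpp by 0.89 on the log2 scale (SE 0.30, limma adjusted p = 0.208). At SNEB 16 wkpp the normalized counts of 1570.1, 4037 and 1242 overlapped with SNEB 1 wkpp.

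*THBS4* was high before calving and low after it. The normalized counts at -4 wkpp were 1609.7, 6141 and 1368. At MNEB 1 wkpp they were 48.0, 113 and 40.4, on 46, 42 and 11 reads, with a log2 difference of 5.35 (SE 0.80) that passed on exons (limma adjusted p = 0.00115) and not on whole genes (3.91, SE 0.92, adjusted p = 0.0345). At SNEB 1 wkpp they were 164, 321 and 66.6, with a log2 difference to -4 wkpp of 3.93 (SE 0.69, limma adjusted p = 0.0306). Without library b of -4 wkpp these differences came to 4.68 and 3.25. No library at 1 wkpp came near those of -4 wkpp, 12.1 times apart in MNEB and 4.27 times in SNEB at the nearest. At 16 wkpp MNEB libraries held 301, 368 and 106, and SNEB libraries 137, 152 and 1323. All 12 libraries after calving lay below the lowest at -4 wkpp, library c of SNEB 16 wkpp only just.

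Of the tenascins, *TNC* was called in 1 comparison and *TNXB* in none. *TNC*, which is low in resting adult tissue and rises in wound repair and inflammation, was highest at MNEB 16 wkpp, with 5016, 1396 and 1890.0 normalized counts. At SNEB 16 wkpp the libraries held 635, 537 and 290.3, all below those of MNEB 16 wkpp. The log2 difference of SNEB minus MNEB was -2.29 (SE 0.45), and limma adjusted p-values of 0.00713 on exons and 0.00601 on whole genes passed. The call was lost in all 6 fits without a single library, with log2 differences from -2.65 to -1.81 and adjusted p-values on exons up to 0.0247. It was lost as well with no filter on low counts and on log2 counts without weights. Without the 4 shallow MNEB libraries the difference was -3.43 (SE 0.67), also not called. At -4 wkpp *TNC* was at 1004, 656 and 315, at MNEB 1 wkpp at 1936, 889 and 470.5 and at SNEB 1 wkpp at 1005, 424 and 434, and these groups overlapped.

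*TNXB*, the tenascin of the dermis and other connective tissue that spaces and stabilises collagen fibrils, varied least of the 10 genes, by 3.06 times between the lowest and highest library. It was at 26537, 29035 and 27705 normalized counts at -4 wkpp and at 14551, 10954 and 19713 at MNEB 1 wkpp. The groups did not overlap, and the log2 difference was 0.92 (SE 0.24, limma adjusted p = 0.0167 on exons and 0.0771 on whole genes). At SNEB 16 wkpp the libraries held 33514, 30768 and 32424, above those of MNEB 16 wkpp (20993, 11397 and 26837) by 0.80 on the log2 scale (SE 0.35, limma adjusted p = 0.125) and above those of SNEB 1 wkpp (24369.8, 29602 and 16485) by 0.50 (SE 0.24, limma adjusted p = 0.673). *SPARC* and *TNXB* were never called between SNEB and MNEB, although their libraries did not overlap at 16 wkpp.

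*SPP1* (osteopontin), an integrin and CD44 ligand made by macrophages among other cells, was level before calving and scattered at 1 wkpp. The normalized counts at -4 wkpp were 1079, 1073 and 1106, a range of 1.03 times. At MNEB 1 wkpp they were 3733, 35.1 and 717, and at SNEB 1 wkpp 209.7, 6229 and 133, so that 1 library in each group was far above the others. At 16 wkpp the groups separated: SNEB libraries held 771, 1472 and 2085, MNEB libraries 242, 257 and 141. The log2 difference of 2.64 (SE 0.40) passed on exons (limma adjusted p = 0.00233) and fell just short on whole genes (0.0102). With 1 library left out it ranged from 2.32 to 3.03. It passed in both analyses without library a of SNEB 16 wkpp, and without library a or c of MNEB 16 wkpp it did not pass on exons either (limma adjusted p = 0.0173 and 0.0112).

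**Figure D2:**
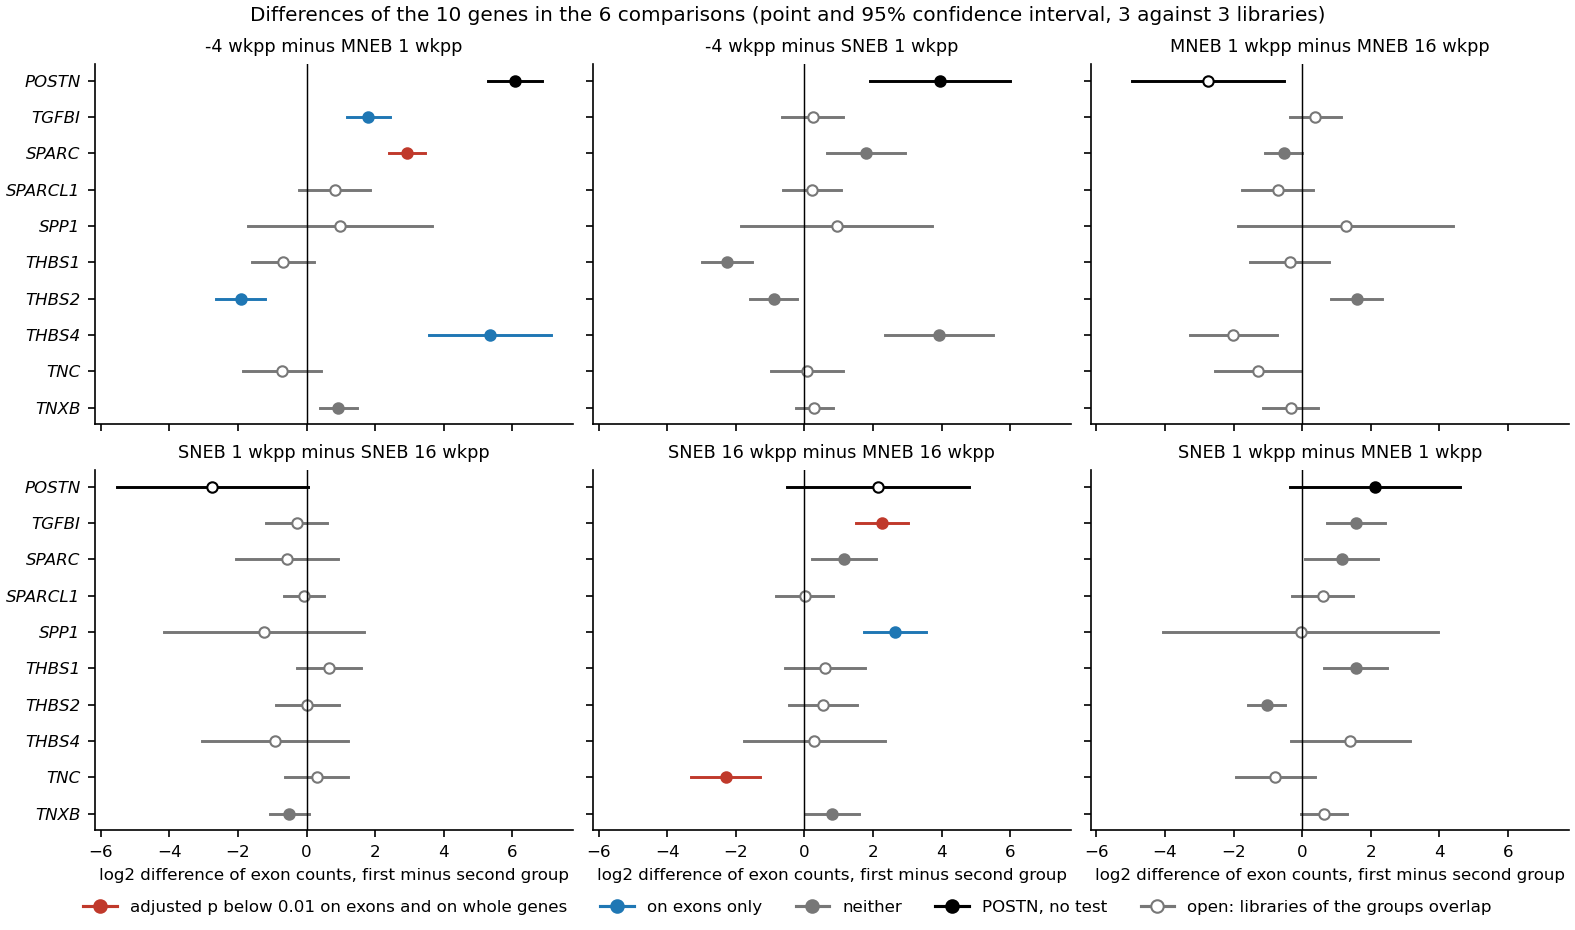
Log2 difference of exon counts, first minus second group, for the 10 genes in the 6 comparisons of 3 libraries against 3, with 95% confidence intervals that cover 1 gene each. Red marks genes called in both analyses (*SPARC* at 2.94, *TGFBI* at 2.26, *TNC* at -2.29), blue those past the threshold on exons only, open symbols groups whose libraries overlap, and black *POSTN*, for which no test is given.

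Counts over the family are given for the 9 genes other than *POSTN*. Between -4 wkpp and MNEB 1 wkpp, the libraries of 5 of 9 genes did not overlap, of which 4 were higher at -4 wkpp and *THBS2* was higher at MNEB 1 wkpp. Among all 10761 genes tested, 46.0% did not overlap, 22.6% higher at -4 wkpp and 23.4% higher at MNEB 1 wkpp. Of the 9 genes, *SPARC* alone was called in both analyses, where 2.75% of all genes were. The family was built on this comparison and nothing is read from these counts. The median log2 difference of the 9 genes was 0.92 and that of all genes 0.03.

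Between -4 wkpp and SNEB 1 wkpp, a comparison that shares its 3 libraries of -4 wkpp with the one before, 4 of 9 genes did not overlap. *SPARC* and *THBS4* were higher at -4 wkpp and *THBS1* and *THBS2* at SNEB 1 wkpp. Of all 10356 genes, 19.8% did not overlap, 10.4% higher at -4 wkpp and 9.40% higher at SNEB 1 wkpp. No gene of any kind was called (0 of 10356, 0%) by limma on voom weights, with 1522 at an unadjusted p below 0.05 and 2 called by limma on log2 counts without weights. Without library b of SNEB 1 wkpp, 167 genes were called, *SPARC* and *SPP1* among them. The median log2 difference was 0.24 for the 9 genes and -0.03 for all.

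From 1 to 16 wkpp few of the genes separated. In MNEB cows *SPARC* was higher at 16 wkpp and *THBS2* at 1 wkpp, 2 of 9, where 19.7% of 10609 genes did not overlap, 9.99% higher at 1 wkpp and 9.66% higher at 16 wkpp. In SNEB cows *TNXB* alone was higher at 16 wkpp, 1 of 9, where 12.2% of 10237 genes did not overlap, 8.05% higher at 1 wkpp and 4.18% higher at 16 wkpp. Both shares of the family were near those of all genes. No gene was called in either comparison (0 of 10609 and 0 of 10237, 0%, by limma on voom weights and without weights), with 1366 and 756 at an unadjusted p below 0.05. A single fit over these 12 libraries set the time course of SNEB cows against that of MNEB cows and called no gene (0 of 10446, 0%), with 510 at an unadjusted p below 0.05 on exons. Among the 9 genes the lowest adjusted p-value of limma was 0.989 on exons and 0.798 on whole genes. On exons it was that of *THBS2*, with a difference of the changes of 1.58 on the log2 scale (SE 0.56).

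Between SNEB and MNEB at 16 wkpp, 5 of 9 genes did not overlap, *TGFBI*, *SPARC*, *SPP1* and *TNXB* higher in SNEB and *TNC* higher in MNEB. Of 10294 genes, 44.1% did not overlap, 22.1% higher in SNEB and 22.0% higher in MNEB. *TGFBI* and *TNC* were called, 2 of 9, against 5.04% of all genes. The median log2 difference was 0.60 for the 9 genes and 0.02 for all. At 1 wkpp, 4 of 9 did not overlap, *TGFBI*, *SPARC* and *THBS1* higher in SNEB and *THBS2* higher in MNEB. There, 39.4% of 10615 genes did not overlap, 18.9% higher in SNEB and 20.5% higher in MNEB, and no gene was called (0 of 10615, 0%, by limma on voom weights and without weights, with 3362 at an unadjusted p below 0.05). In each of these comparisons the share of the family that did not overlap, in either direction, was near that of all genes.

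By size alone, group means at least 2 times apart in both analyses were found for 4 of the 9 genes between -4 wkpp and MNEB 1 wkpp (20.0% of all genes), 4 between -4 wkpp and SNEB 1 wkpp (5.56%), 3 between MNEB 1 and 16 wkpp (8.36%), 1 between SNEB 1 and 16 wkpp (2.25%), 4 between SNEB and MNEB at 16 wkpp (14.0%) and 3 between these diets at 1 wkpp (14.5%). In the deposited mean counts of the 6 SNEB against the 6 MNEB libraries after calving, put on one scale with the size factors, *POSTN* was 6.03 times as high in SNEB, *TGFBI* 3.78 times, *SPARC* 2.70 times, *THBS4* 2.21 times and *SPP1* 2.11 times. *TNC* was 3.50 times as high in MNEB. That made 4 of the 9 genes other than *POSTN* at least 2 times higher in SNEB, against 7.11% of 10487 genes, and 1 at least 2 times higher in MNEB, against 11.5%. With the tables as deposited, each on its own scale, the median ratio of all genes was 3.54, 83.9% of genes were at least 2 times higher in SNEB and 0.420% in MNEB, and of the 9 genes 8 and 0, with *POSTN* at 20.9 and *TNC* at 0.990. The 12 libraries themselves gave ratios of 5.97 for *POSTN*, 2.13 for *SPP1* and 2.22 for *THBS4*, and these rest on single libraries. Without library c of SNEB 16 wkpp *POSTN* came to 1.79 and *THBS4* to 1.03, and without library b of SNEB 1 wkpp *SPP1* came to 1.09. In the other direction, *POSTN* came to 10.0 without library c of MNEB 16 wkpp and *SPP1* to 6.53 without library a of MNEB 1 wkpp. On whole genes the ratio of *THBS4* was 1.28. For *TGFBI* the ratio stayed between 3.38 and 4.13 with any 1 library left out.

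The share of a gene's reads that lay outside its annotated exons, in introns or other parts of the gene, differed between genes and groups. Over whole libraries, 40.4 to 53.0% of the gene reads lay outside exons in the MNEB libraries and 46.1 to 59.8% in the others. *SPP1* had 0 to 4.88% of its reads outside exons apart from 31.6% in library b of MNEB 1 wkpp, where 13 reads lay on exons. *TNC* had 35.5 to 61.8%, *THBS1* had 2.27 to 9.22% and *TNXB* 3.55 to 11.8%. *THBS2* and *SPARCL1* differed between the MNEB and the other libraries in opposite directions. For *THBS2* the share was 9.17 to 21.4% in the 6 MNEB libraries and 22.3 to 34.9% in the other 9, and for *SPARCL1* 21.5 to 32.8% and 11.3 to 21.1%.

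For *POSTN* and *THBS4* the highest shares were found at MNEB 1 wkpp. In MNEB 1 wkpp libraries a, b and c, 20.0% (95% Wilson interval 15.3 to 25.7%), 45.3% (35.6 to 55.3%) and 62.9% (50.5 to 73.8%) of the *POSTN* reads lay outside exons, against 8.34 to 20.7% in the other 12 libraries. Normalized, these reads numbered 46.9, 116 and 143 there and 2019, 933 and 2487 at -4 wkpp, so that both kinds of read were lower at MNEB 1 wkpp. For *THBS4* the shares were 37.8, 69.8 and 85.7%, and the normalized reads outside exons, 29.2, 262 and 243, overlapped with those at -4 wkpp, 23.6, 72.7 and 132. Intervals cover counting error only.

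**Figure D3:**
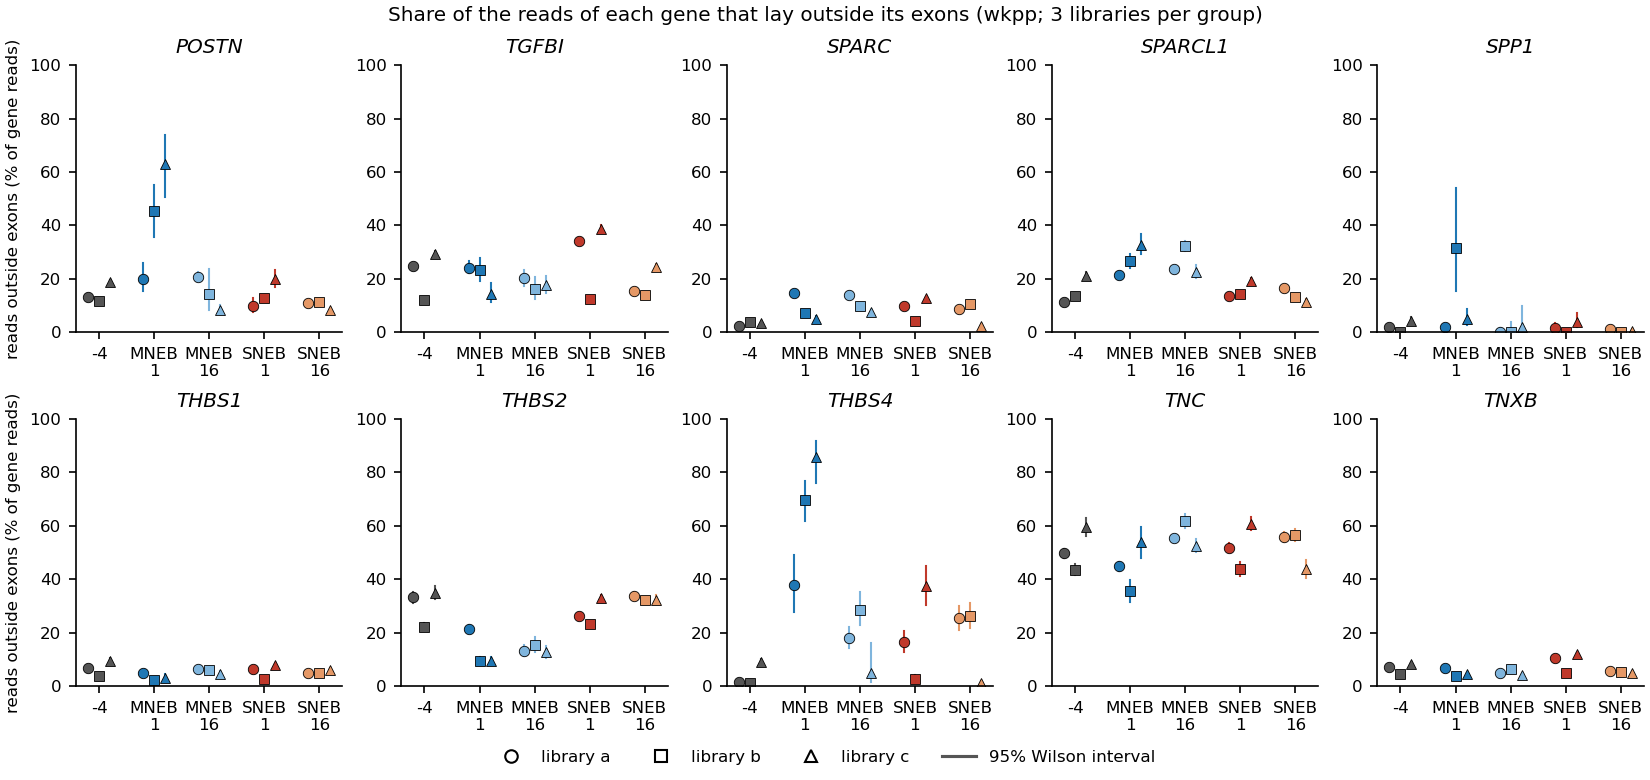
Share of the reads of each gene that lay outside its exons (percent of all reads on the gene) in the 15 libraries, by group, with 95% Wilson intervals. The libraries of MNEB 1 wkpp reach 62.9% for *POSTN* and 85.7% for *THBS4*, and for *THBS2* the 6 MNEB libraries lie between 9.17 and 21.4%, below the other 9.

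Genes with the pattern most like *POSTN* were sought among 8143 genes with a mean count of at least 100, by the distance between the centred log2 means of the 5 groups. The nearest were *PRG4* (1.33), a lubricating proteoglycan of joint surfaces, *TPSB2* (1.35), a mast cell tryptase, *FN1* (1.79), fibronectin, *SCD* (2.11), the stearoyl-CoA desaturase, and *FMOD* (2.20), fibromodulin, a small proteoglycan on collagen fibrils. Of the family, *THBS4* was nearest (2.28, rank 7), followed by *SPARC* (3.18, rank 60) and *TGFBI* (3.86, rank 314). *THBS2* was farthest (6.22, rank 7522). *FN1* held 122578, 97866.5 and 80978.5 normalized counts at -4 wkpp and 10171, 5420.1 and 2885 at MNEB 1 wkpp. As with *POSTN*, library b of SNEB 1 wkpp was the highest of its group for each of the 5 genes, and library c of SNEB 16 wkpp for *PRG4*, *FN1* and *SCD*. These libraries raise the group means of *POSTN* on which the genes were chosen, so nothing is read from this.

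**Figure D4:**
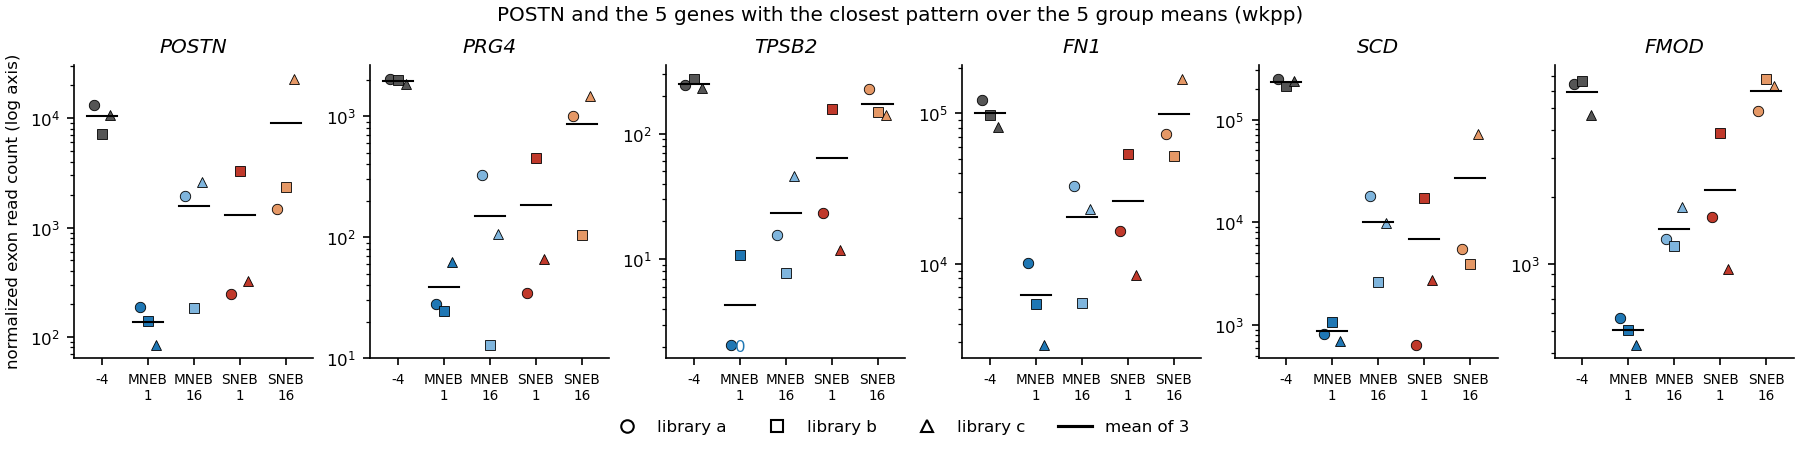
Normalized exon read count (log axis) of *POSTN* and the 5 genes with the nearest group means in the 15 libraries, by group, with a bar at the mean of 3 and a 0 where a library had no read (*TPSB2*, library c of MNEB 1 wkpp). Each gene has its lowest group mean at MNEB 1 wkpp, 138 for *POSTN* and 4.3 for *TPSB2*, which the choice of genes by nearness to *POSTN* favours.

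Among relatives of the 10 proteins (other thrombospondins, tenascins, SPARC and CCN family genes), 13 of 16 listed genes could be followed. Of those tested, 1 of 11 was called between -4 wkpp and MNEB 1 wkpp, against 2.75% of all genes. Between SNEB and MNEB at 16 wkpp 1 of 9 was called, against 5.04% of all genes. In both cases it was *FSTL1*, a secreted SPARC family protein. *FSTL1* was higher at -4 wkpp by 2.99 on the log2 scale (SE 0.20, limma adjusted p = 2.65e-05 on exons and 0.00382 on whole genes) and higher in SNEB by 2.13 (SE 0.28, 0.00146 and 0.00404). Of the other relatives, those with a ratio of SNEB to MNEB means after calving farthest from 1 were *SMOC2* (1.84) and *CYR61* (0.549), neither of them called. None of the relatives was called in the other 4 comparisons, where no gene of any kind was called. On exons alone, 5 of 11 relatives passed between -4 wkpp and MNEB 1 wkpp, all higher at -4 wkpp, where 1754 of all 10761 genes passed.

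Of the receptors of matricellular proteins, 14 of 16 listed genes could be followed and 2 were called in 1 of the 6 comparisons (13 tested), both lower in SNEB than in MNEB at 16 wkpp. Of all 10294 genes, 5.04% were called in that comparison. The 2 receptors were *ITGA5*, the alpha chain of the fibronectin receptor (-1.18, SE 0.22, limma adjusted p = 0.0063 and 0.00469), and *SDC1*, syndecan-1 (-1.63, SE 0.34, 0.00934 and 0.00952). *ITGAV*, the alpha chain shared by receptors of periostin and osteopontin, had group means of 1899 at -4 wkpp and 672 at MNEB 1 wkpp and was not called (log2 difference 1.53, SE 0.29, limma adjusted p = 0.00367 on exons and 0.0594 on whole genes). *ITGA4* had a ratio of SNEB to MNEB means of 1.81 and was not called. Of 14 listed TGF-beta ligands, binding proteins, receptors and SMADs, 12 could be followed and none was called in any comparison, with 0 of 12 in each by limma. Of all genes, 2.75% were called between -4 wkpp and MNEB 1 wkpp and 5.04% between SNEB and MNEB at 16 wkpp. In the other comparisons no gene of any kind was called, so a count of 0 says nothing about the list there. The ratios farthest from 1 were those of *SMAD7* (0.482), *LTBP2* (0.501) and *LTBP1* (1.99). *LTBP1* passed on exons only, in 2 comparisons. It was higher at -4 wkpp than at MNEB 1 wkpp by 1.53 on the log2 scale (SE 0.32, limma adjusted p = 0.00587). At 16 wkpp it was higher in SNEB than in MNEB by 1.08 (SE 0.23, limma adjusted p = 0.00949).

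Of 15 listed matrix genes that the proteins bind or organise, 7 could be followed in both analyses. The read counts of *COL1A2*, *COL3A1*, *FN1* and *FBN1* were not recovered in both. *LOX*, the lysyl oxidase that cross-links collagen, was the 1 of 7 called in each of 2 comparisons, against 2.75% and 5.04% of all genes. It was higher at -4 wkpp than at MNEB 1 wkpp by 2.47 on the log2 scale (SE 0.22, limma adjusted p = 0.000125 and 0.00382) and higher in SNEB than in MNEB at 16 wkpp by 2.21 (SE 0.30, 0.00152 and 0.00463). *COL1A1* and *COL12A1* had ratios of SNEB to MNEB means of 2.68 and 1.87 and passed on exons only between -4 wkpp and MNEB 1 wkpp (limma adjusted p = 0.00216 and 0.00129 on exons, 0.0305 and 0.0139 on whole genes). On exons alone, 4 of the 7 matrix genes passed there, where 1754 of all 10761 genes passed.

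Markers of the cell types that the biopsies could hold moved with these groups. The summed normalized counts of 5 fibroblast markers were 63206 to 78370 at -4 wkpp, 6901 to 15126 at MNEB 1 wkpp, 10388 to 23868 at MNEB 16 wkpp, 35033 to 54755 at SNEB 1 wkpp and 68969 to 78776 at SNEB 16 wkpp. All 6 MNEB libraries were below all others in fibroblast markers. Macrophage markers (4 of 5 listed followed) were 4845 to 6902 at -4 wkpp, 1959 to 6858 at MNEB 1 wkpp, 1908 to 2204 at MNEB 16 wkpp, 7460.5 to 11393 at SNEB 1 wkpp and 10310.2 to 13491 at SNEB 16 wkpp. Adipocyte markers (4 of 5) were 40789.6 to 49794 at -4 wkpp, 7224 to 47093 over the MNEB libraries and 36909 to 78590.1 over the SNEB libraries, and none was at 0. The part of these shifts in the differences of the 10 genes was not tested.

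Markers of other tissues were found as well. Skeletal muscle markers (6 genes) summed to 84.6 to 354 normalized counts at -4 wkpp and in SNEB libraries and to 1173 to 4084 in the MNEB libraries, with up to 3 of 6 genes at 0 in a library, among them *ACTA1*, *MYH1*, *MYH2*, *MYH7* and *CKM*. Endothelium markers (5 genes) were 29705 to 63262 at MNEB 1 wkpp, 23701 to 34013 at MNEB 16 wkpp and 19260.2 to 36584 in the 9 libraries of -4 wkpp and SNEB. Smooth muscle and pericyte markers (5 genes) were 12916 to 41806 at -4 wkpp, 16949 to 55690.4 in MNEB libraries and 9143 to 19152 in SNEB libraries. Keratinocyte and hair follicle markers (5 genes) were 172 to 610.0 at -4 wkpp, 0 to 268 in MNEB libraries and 2.45 to 9.87 in SNEB libraries, with up to 5 of 5 at 0. Cartilage and bone markers (4 of 5) were 20.6 to 287 in all libraries. Schwann cell markers (4 genes) were 429 to 3179 apart from 6968 in library b of MNEB 1 wkpp and 5012 in library a of SNEB 1 wkpp, and lymph node and lymphatic vessel markers (5 genes) were 255 to 647 in MNEB and 1130 to 2908 in the other libraries. Their part in the results was not tested.

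**Figure D5:**
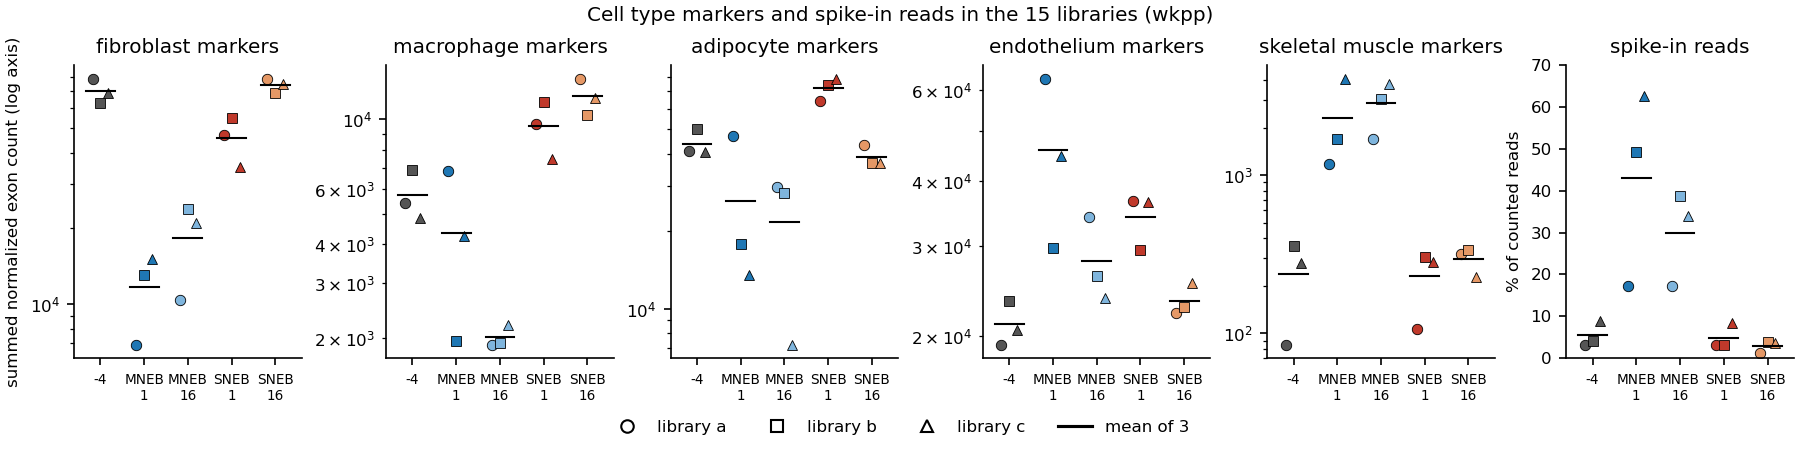
Summed normalized exon counts of 5 lists of cell type markers (log axis) and the percent of counted reads that came from spike-ins in the 15 libraries, by group, with a bar at the mean of 3. Fibroblast markers lie between 6901 and 23868 in the 6 MNEB libraries and between 35033 and 78776 in the other 9, and spike-ins between 17.2 and 62.7% and between 1.28 and 8.90%.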

How the data were processed

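RNA of 15 libraries was prepared with a stranded, ribosome-depleted kit. Per the labels and the study's methods, the authors trimmed reads with Cutadapt 1.3 (base calls by bcl2fastq 2.15.0), aligned them with TopHat2 to bosTau8 and counted them with htseq-count on exons and on whole genes; the strand setting and the amount of spike-in RNA are not given in the sources used here. The deposited tables, 1 for each of 6 comparisons, hold the authors' DESeq2 output. Of these columns, only the authors' mean of normalized counts over 6 libraries was used. The other 60 columns hold the authors' log2 fold changes, standard errors, test statistics and p-values and were not used. There were 0 columns of other samples.

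The means are printed with 15 digits. Genes with 1 read in 1 library gave the size factors, the libraries were linked between tables, and the whole-number counts that give all 6 means were solved by lattice reduction. This recovered 13985 of 13988 entries on exons and 13983 on whole genes (92 entries are spike-ins). As a check, size factors recomputed from the recovered counts differed from those read in the tables by at most 0.012% and 0.034%, 87 of 87 spike-ins had the same counts in both analyses, and 98.2% of exon counts did not exceed the whole gene count. A library's group follows from the tables that share it. Libraries are lettered by falling size factor and are not tied to single samples.

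The planned analysis assumed that values of single libraries could not be had and set no test. Since counts were recovered, they were scaled by the median of ratios over 15 libraries and compared, 3 against 3, with limma 3.58.1 on voom weights (R 4.3.3), and the planned means, ratios and fold shares were computed beside them. Genes with a mean of at least 10 were tested, and calls needed adjusted p-values under 0.01 on exons and on whole genes. Whether the diets differed in their change over time after calving was fitted as an interaction. The scripts were tested on simulated data. Named were all 10 genes, the 3 genes of each list with the largest ratio between SNEB and MNEB and the 5 most like *POSTN*; *SDC1*, *COL1A2*, *COL3A1*, *FN1* and *FBN1* in the lists were named after their values were seen. Log2 differences are given for genes whose groups did not overlap, and for *POSTN*. The genes and lists were chosen with earlier results of these data known. Listed genes without values are not analysed here. Alternatives were other scalings, filters, weights, thresholds and libraries left out. No sequence was used, as the reference at hand is of another assembly. Intervals of shares are Wilson intervals. Tools were matplotlib 3.10.9, sympy 1.14.0, pandas 2.3.3, scipy 1.17.1 and numpy 2.4.6 under Python 3.11.15.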

Additional observations from a re-analysis of the deposited data

How the results depend on the processing

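Each group had 3 libraries, and calls needed both analyses; what limits their number was not tested. Calls of *POSTN* are left out of the counts of members, which run over the other 9 genes. In the fits to the libraries, no log2 difference of a gene whose groups did not overlap changed sign under any alternative, nor did that of *POSTN*. Groups that do not overlap keep their order when a library is left out, so the kept sign says little about those genes. Alternatives other than the filter, the fold, exons or whole genes and leaving out libraries were added after seeing the data.

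Between -4 wkpp and MNEB 1 wkpp, 296 genes and 1 of the 9 were called. The count of genes came to 118 with no filter, 187 with scaling by trimmed mean of M values, 171 on log2 counts without weights, 1621 with library quality weights, 1141 with all 15 libraries in 1 fit, 189 without the 4 shallow MNEB libraries, 1754 on exons alone and 1337 at an adjusted p below 0.05. Of the 9 genes, 0 were called without weights, 3 with quality weights, 2 with all libraries, 0 without the 4 shallow libraries, 4 on exons alone and 4 at 0.05. Leaving out a library gave 2 to 200 genes and 0 to 1 of the 9, with 200 and 1 only without library a of MNEB 1 wkpp.

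Between -4 wkpp and SNEB 1 wkpp, in place of 0 genes, 2 were called without weights, 295 with quality weights, 37 with all libraries, 54 on exons alone, 82 at 0.05 and 0 to 167 with a library left out (167 without library b of SNEB 1 wkpp, 0 otherwise). Of the 9 genes, 2 were called with quality weights, 1 at 0.05 and 0 to 2 with a library left out (2 without library b of SNEB 1 wkpp). Between SNEB and MNEB at 16 wkpp, in place of 519 genes and 2 of the 9, the values were 263 and 0 with no filter, 140 and 0 without weights, 31 and 0 without the 4 shallow libraries, and 109 to 346 and 0 to 1 with a library left out, with 1065 genes on exons alone and 1521 at 0.05. At 1 wkpp, in place of 0 genes, 672 were called with quality weights, 367 with all libraries, 157 on exons alone, 327 at 0.05 and 0 to 373 with a library left out (373 without library a of MNEB 1 wkpp), and 1 of the 9 with quality weights and 1 at 0.05. From 1 to 16 wkpp the count of calls at 0.01 in both analyses was 0 in both diets under each alternative run. Passing in 1 analysis or at 0.05 were 205 genes on whole genes without library a of MNEB 1 wkpp, 33 at 0.05 without library b of SNEB 1 wkpp, and 0 or 1 otherwise.

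Genes with group means 2 times apart numbered 2125, 569, 878, 228, 1425 and 1519 in the 6 comparisons (-4 wkpp with MNEB 1 and with SNEB 1 wkpp, MNEB 1 with 16, SNEB 1 with 16, SNEB with MNEB at 16 and at 1 wkpp) and 4016, 1328, 2140, 837, 2958 and 3299 at 1.5 times. With no filter they numbered 3429, 1353, 2194 and 724 in the first 4 and 2563 in the last, and on exons alone 3188 in the first and 2412 in the last. Of the 50 group means of the 10 genes, 49 solved from the 6 table means lay within 1 SD of those of the libraries, and 27 when tables were not scaled to each other. In the latter, among genes whose groups did not overlap, the means of *THBS2* turned between SNEB and MNEB at 1 wkpp (3264 and 2557) and those of *TNXB* between SNEB 1 and 16 wkpp (37806 and 37683). Means of genes whose groups overlapped turned as well. Those of *SPP1* at MNEB 1 and 16 wkpp, for example, were 340 and 471, against 1495 and 213 from the libraries. Scaling by total count moved the median log2 difference of all genes from 0.03 to -0.08 between -4 wkpp and MNEB 1 wkpp and from -0.03 to -0.13 between -4 wkpp and SNEB 1 wkpp. The causes were not tested. No paired analysis was possible because the labels do not link samples to cows or give the groups shared replicate numbers, and the recovered libraries are not tied to single samples.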
